A study of Mus musculus with 3 samples.

Results

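The genes described here are 10 mouse genes of tissue macrophages: Cd5l, Fcna, Mrc1, Cd209f, Spic, Siglec1, Axl, Mertk, Vcam1 and Cd163. They were listed by name and read on every array probe set that the platform annotation pairs with that gene alone, which gave 16 of 45037 probe sets, or 10 of 18193 genes. The genes were chosen by their measured differences from wild type, because many of them were higher in both transgenic lines of the study. Those differences are therefore given as a description and carry no test. The rule set no numerical limit.

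Resident macrophages of bone marrow, spleen and liver clear dying cells, aged red cells and circulating debris. They recognise such cargo through scavenger receptors and lectins on their surface, through soluble proteins that coat it, and through receptor kinases of the TAM family, Axl and Mertk, which bind apoptotic cells by way of the bridging proteins Gas6 and Pros1. In bone marrow, macrophages that carry Siglec1 and Vcam1 sit at the centre of erythroblastic islands, and macrophages that recycle haem iron depend on the transcription factor Spi-C. Several of these genes are also known outside macrophages, among them Mrc1 and Vcam1 in sinusoidal endothelium and Vcam1 and Axl in marrow stroma.

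RNA came from bone marrow of 10-week-old C57BL/6J mice, from Sca-1-positive cells depleted of lineage markers, a fraction used to enrich stem and progenitor cells. The 3 samples were transgenic Line 3, transgenic Line 6, both named in the labels as C57BL/6J-Tg(Ly6a-KDM1A*v2, and C57BL/6J wild type. KDM1A is the histone demethylase LSD1, and Ly6a encodes Sca-1. Each genotype had 1 array, so differences come without an error from replicates and without a p-value, and the small number of arrays limits their precision. Each line stands for its own transgene insertion, and how many mice, and of which sex, gave each sample is not stated in the labels.

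Values are array intensities on a linear scale, with medians of 99.0 in Line 3, 116 in Line 6 and 96.2 in wild type. Differences are on the log2(intensity + 16) scale, line minus wild type, and understate the change of dim genes. A gene was read on its probe set with the highest mean and counted as higher or lower at 2-fold or more. The 10864 genes that reached the array median on at least 1 array form the background. Among marker genes of the sorted fraction, Kit read 923, 899 and 603 and Cd34 read 2315, 1838 and 971 in Line 3, Line 6 and wild type, while Ly6a was not analysed here. Of the genes of lineage markers, Itgam, the integrin CD11b of myeloid cells, read 713, 1088 and 2653, so myeloid transcripts were present on all 3 arrays. The neutrophil marker S100a8 read 18745, 22487 and 25535 and the erythroid marker Slc4a1 read 8268, 12348 and 12742, above Kit and Cd34 on every array. The samples are thus not read here as pure stem and progenitor cells. Kdm1a read 2979 in Line 3, 2575 in Line 6 and 2104 in wild type on its brighter probe set, where the Line 6 difference of 0.29 was 0.02 after centring on array medians. Its dimmer probe set read 1482, 911 and 916, so that Line 6 did not lie above wild type there. Whether these Kdm1a probe sets also read the KDM1A transgene was not checked.

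Start site windows were available in RefSeq (GRCm38.p6) for 8 of the 10 genes, each 300 bases long with 250 before the start and 50 after it. They are shown for the 4 genes whose window held GAGGAA or its reverse complement TTCCTC, the core letters bound by PU.1 and Spi-C, ETS factors of macrophages. Capitals mark these letters. The windows are chr3:87357631-87357930 (plus strand) for Cd5l, chr2:25627925-25628224 (minus strand) for Fcna, chr2:14229164-14229463 (plus strand) for Mrc1 and chr7:25788684-25788983 (minus strand) for Axl.
Cd5l: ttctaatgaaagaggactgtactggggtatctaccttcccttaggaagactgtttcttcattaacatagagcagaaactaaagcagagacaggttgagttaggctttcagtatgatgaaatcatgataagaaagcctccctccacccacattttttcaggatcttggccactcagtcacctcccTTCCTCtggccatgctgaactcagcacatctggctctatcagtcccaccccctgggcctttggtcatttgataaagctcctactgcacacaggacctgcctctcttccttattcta
Fcna: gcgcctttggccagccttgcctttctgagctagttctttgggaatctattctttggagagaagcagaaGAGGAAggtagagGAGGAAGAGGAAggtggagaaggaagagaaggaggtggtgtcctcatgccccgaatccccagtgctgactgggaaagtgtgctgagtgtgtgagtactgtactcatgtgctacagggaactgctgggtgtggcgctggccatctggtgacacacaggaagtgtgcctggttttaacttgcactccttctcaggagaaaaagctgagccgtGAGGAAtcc
Mrc1: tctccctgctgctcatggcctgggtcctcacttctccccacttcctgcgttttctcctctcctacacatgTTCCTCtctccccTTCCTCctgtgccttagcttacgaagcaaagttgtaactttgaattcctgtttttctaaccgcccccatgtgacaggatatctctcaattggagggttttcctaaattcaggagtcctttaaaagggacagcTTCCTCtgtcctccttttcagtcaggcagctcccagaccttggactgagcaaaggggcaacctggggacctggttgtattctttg
Axl: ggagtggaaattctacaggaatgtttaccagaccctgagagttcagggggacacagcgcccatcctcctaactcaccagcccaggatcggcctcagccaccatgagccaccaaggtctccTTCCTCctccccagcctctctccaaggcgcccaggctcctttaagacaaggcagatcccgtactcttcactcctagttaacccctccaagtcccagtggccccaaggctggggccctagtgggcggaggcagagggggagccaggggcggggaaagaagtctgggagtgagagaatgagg
Cd5l and Axl held 1 match each, Mrc1 3 and Fcna 4, of which a pair lay end to end. The windows of Cd163, Cd209f, Mertk and Spic held none. A match was thus present in 4 of 8 windows, against 28.3% of all 32851 windows. The MAF recognition core TGCTGA was present in 3 of 8 (Cd5l, Fcna and Spic), against 19.5% of all windows. TATAAA, the TATA box, and TGANTCA, the AP-1 site, were found in the Cd209f window only, against 13.6% and 7.81% of all windows. The C/EBP palindrome TTGCNNAA and the nuclear receptor core AGGTCA were in none of the 8, against 10.8% and 16.3%. Both strands were searched for every motif, none of these motifs overlapped another in the 8 windows, and a match is a description of letters only.

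All 10 genes read higher in both lines than in wild type. In Line 3, 10 of 10 were at least 2-fold higher and none was lower, where 3.57% of all genes were higher and 4.46% lower. In Line 6, 9 of 10 were higher and none was lower, where 2.57% of all genes were higher and 2.41% lower, and Vcam1 was the gene that did not pass. In both lines together 9 of 10 passed, where 1.35% of all genes were higher (147 genes) and 2.07% lower (225 genes). The choice of the list fixes these counts, and nothing is read from them. The number of all genes higher and lower in both lines was 89 and 253 after quantile normalization, 76 and 341 after centring on array medians, and 85 and 272 after cyclic loess. As a group the 10 genes had a median of 1.87 in Line 3 and 1.55 in Line 6, beside 0.12 and 0.06 over all genes. Centring on array medians moved the median of all genes in Line 6 to -0.20, and the 10 genes then had a median of 1.30 there.

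**Figure D1:**
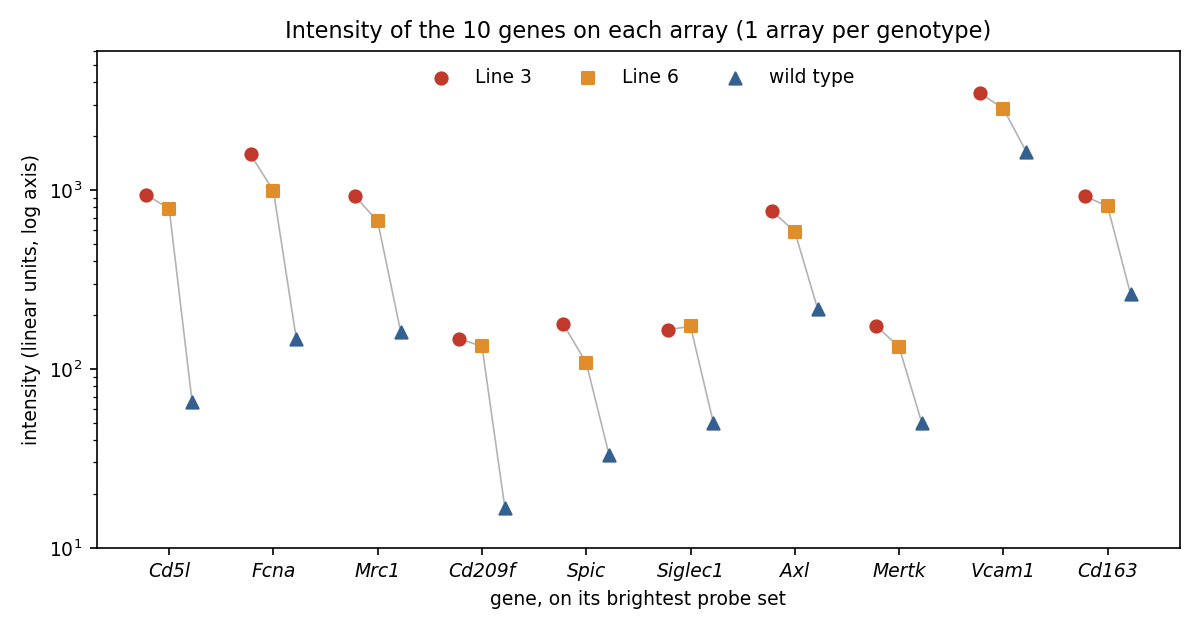
Intensity (log axis) of each gene on its brightest probe set, with the Line 3, Line 6 and wild type arrays side by side and 1 array per genotype. Every gene has its lowest point in wild type, from 16.7 for Cd209f to 1636 for Vcam1.

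All 10 genes passed the filter. Cd5l, Cd209f, Spic, Siglec1 and Mertk lay below the array median in wild type and passed through the lines, and Spic reached the median in Line 3 only. A gene that passes in this way had to differ, so the count of genes past the filter says nothing more. More macrophages, more RNA per macrophage and RNA from other cells cannot be told apart in such bulk samples.

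Cd5l encodes a soluble scavenger protein (AIM) that tissue macrophages secrete and that binds lipids and cell debris. Cd5l read 939 in Line 3 and 786 in Line 6, against 65.4 in wild type. It differed by 3.55 in Line 3 and 3.30 in Line 6, or 11.7-fold and 9.86-fold, and on the deposited scale it had the largest positive difference of the 10864 genes in each line. Over the processing settings it ran from 2.95 to 3.82 in Line 3 and from 2.72 to 3.57 in Line 6.

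Fcna encodes ficolin A, a soluble lectin that binds acetylated sugars on microbes and debris and starts the lectin pathway of complement. Fcna read 1581 in Line 3 and 987 in Line 6, against 146 in wild type. The differences of 3.30 and 2.63 correspond to 9.84-fold and 6.18-fold. Its paralog Fcnb, ficolin B of neutrophils and their precursors, lay on the other side, at 3081 in Line 3 and 4132 in Line 6 against 7597 in wild type (-1.30 and -0.88). Fcnb was thus past 2-fold in Line 3 but not in Line 6 on the deposited scale, and at -1.15 in Line 6 after centring on array medians.

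Mrc1 encodes the mannose receptor CD206, an endocytic lectin. It read 926 in Line 3 and 667 in Line 6, against 162 in wild type, which gave 2.41 and 1.94. Cd209f belongs to the mouse cluster of DC-SIGN-related lectins. It read 147 in Line 3 and 134 in Line 6, against 16.7 in wild type, close to the pseudocount of 16, so that its difference depended most on that setting. The difference was 2.32 and 2.20, ranging over settings from 1.39 to 3.07 in Line 3 and from 1.29 to 2.93 in Line 6.

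The other Cd209 genes did not all behave alike. Cd209e read 43.8 in Line 3 and 29.9 in Line 6, against 7.67 in wild type, and Cd209g read 33.7 and 27.2, against 5.52. Both are dim and below the array median on all 3 arrays. Cd209a read 511 and 370, against 348, or 0.54 in Line 3 and 0.09 in Line 6, and the Line 6 value turned to between -0.17 and -0.02 under the 3 other scalings. Cd209d read 258 and 333, against 163, within 2-fold in both lines. Of the other 9 genes past the filter in a list of lectins, ficolins and collectins, none was 2-fold higher in both lines and 3 were 2-fold lower. These were Clec4e (-3.16 in Line 3 and -2.04 in Line 6), Clec4d (-2.75 and -1.21), both activating lectins of myeloid cells, and Cd302 (-1.05 and -1.02), and their number was 5 after centring on array medians. Their median was -1.05 in Line 3 and -0.83 in Line 6.

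Siglec1 encodes sialoadhesin (CD169), a lectin of resident macrophages that binds sialic acid. Its brightest probe set read 166 in Line 3 and 173 in Line 6, against 49.8 in wild type (1.46 and 1.52). A second probe set read 123 in Line 3 and 57.6 in Line 6, against 21.7 in wild type, and the dimmest read 18.2 and 17.3, against 2.16. All 3 were lowest in wild type, and the second placed Line 3 above Line 6 by 0.92 where the brightest gave -0.06. Among the 7 other sialic acid binding lectins past the filter, none was 2-fold higher in both lines. Cd33 (-3.06 in Line 3 and -1.80 in Line 6) and Siglece (-2.34 and -1.57), inhibitory receptors of myeloid cells, were lower in both.

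Cd163 encodes the scavenger receptor that takes up haptoglobin-haemoglobin complexes. It read 924 in Line 3 and 811 in Line 6, against 262 in wild type, differences of 1.76 and 1.57. Line 3 and Line 6 differed from each other by 0.18. In a list of 20 scavenger receptors and opsonins, 10 genes other than Cd5l, Cd163 and Mrc1 passed the filter. Of these, Stab2, a hyaluronan scavenger receptor of sinusoids, was 2-fold higher in both lines (1.23 in Line 3 and 1.61 in Line 6), and Msr1, the class A scavenger receptor, was lower, at 85.2 in Line 3 and 134 in Line 6 against 548 in wild type (-2.48 and -1.91). The remaining 8 did not pass in both. The 10 genes had a median of -0.34 in Line 3 and -0.18 in Line 6.

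Spic encodes Spi-C, the ETS factor required for red pulp and bone marrow macrophages that recycle iron. Its brighter probe set read 178 in Line 3 and 108 in Line 6, against 32.9 in wild type (1.99 and 1.34). The dimmer probe set read 96.6 in Line 3 and 69.3 in Line 6, against 41.0 in wild type, which gave 0.98 and 0.58, inside the 2-fold limit. Both probe sets had the order Line 3, Line 6, wild type from high to low, as did 33.9% of all genes. Of 14 other genes of haem and iron handling past the filter, none was 2-fold higher in both lines. Hmox1, the haem oxygenase gene, read 1674 in Line 3 and 1426 in Line 6, against 902 in wild type (0.88 and 0.65). Slc40a1, the iron exporter ferroportin, read 1984 and 1974, against 2299 (-0.21 and -0.22). Hp, haptoglobin, the plasma partner of Cd163, was lower by 2-fold in both lines (-1.36 and -1.10).

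Axl and Mertk are receptor tyrosine kinases that bind apoptotic cells through Gas6, and Mertk also through Pros1. Axl read 764 in Line 3 and 586 in Line 6, against 216 in wild type (1.75 and 1.38). A second Axl probe set read 0.117, 6.30 and 8.47 in Line 3, Line 6 and wild type, below the pseudocount on all 3 arrays, too dim to be compared. The median of both Axl probe sets gave 0.57 in Line 3 and 0.62 in Line 6, so the call rests on the brighter one. Mertk read 174 in Line 3 and 133 in Line 6, against 49.5 in wild type (1.54 and 1.18). In Line 6, Mertk lay inside 2-fold, between 0.95 and 0.97, under each of the 3 other scalings.

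Their ligands were not 2-fold higher. Gas6 read 106 in Line 3 and 142 in Line 6, against 136 in wild type, and Pros1 read 363 and 290, against 431. Tyro3, the remaining TAM receptor, was near the pseudocount on its brighter probe set, at 15.5, 20.6 and 11.0 in Line 3, Line 6 and wild type. Timd4, a phosphatidylserine receptor of resident macrophages, read 62.2 in Line 3 and 56.5 in Line 6, against 19.1 in wild type, and was below the array median on all 3 arrays. Of 17 other efferocytosis genes past the filter, Stab2 was the 1 gene higher by 2-fold in both lines, and Cd300lf, an immunoreceptor of myeloid cells, was the 1 lower (-2.50 in Line 3 and -1.26 in Line 6). None of 25 genes of the engulfment machinery was past 2-fold in either direction in either line, and their medians were -0.17 and -0.18.

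Cd5l and Mertk are known targets of the oxysterol receptor LXR, and Nr1h3, the gene of LXR alpha, read 134 in Line 3 and 111 in Line 6, against 55.8 in wild type (1.06 and 0.82). Of the 10 other genes in a list of LXR targets that holds Nr1h3 itself, none was 2-fold higher in both lines and Arg2 was lower (-2.31 and -1.18). The cholesterol exporter Abca1 came closest to the limit, at 1.18 in Line 3 and 0.996 in Line 6, just inside 2-fold in Line 6. Among 16 macrophage transcription factors and nuclear receptors other than Spic, Pparg was 2-fold higher in both lines, at 202 in Line 3 and 115 in Line 6 against 43.0 in wild type (1.89 and 1.15), and lay between 0.92 and 0.94 in Line 6 under the 3 other scalings. Spi1, the gene of PU.1, read 3078 in Line 3 and 3283 in Line 6, against 4625 in wild type (-0.59 and -0.49).

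Vcam1 encodes the adhesion molecule through which macrophages, stroma and endothelium hold cells that carry the integrin alpha 4 beta 1. It had the smallest differences of the 10 genes on brightest probe sets. That probe set read 3465 in Line 3 and 2852 in Line 6, against 1636 in wild type (1.08 and 0.80). The second read 1939 and 1457, against 831 (1.21 and 0.80), and the third 480 and 413, against 276 (0.76 and 0.56). All 3 probe sets had the order Line 3, Line 6, wild type from high to low, an order that 33.9% of all genes had. The integrin chains Itga4 (0.51 in both lines) and Itgb1 (0.48 and 0.44) were within 2-fold, and none of the 7 other adhesion genes past the filter was past 2-fold in both lines.

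**Figure D2:**
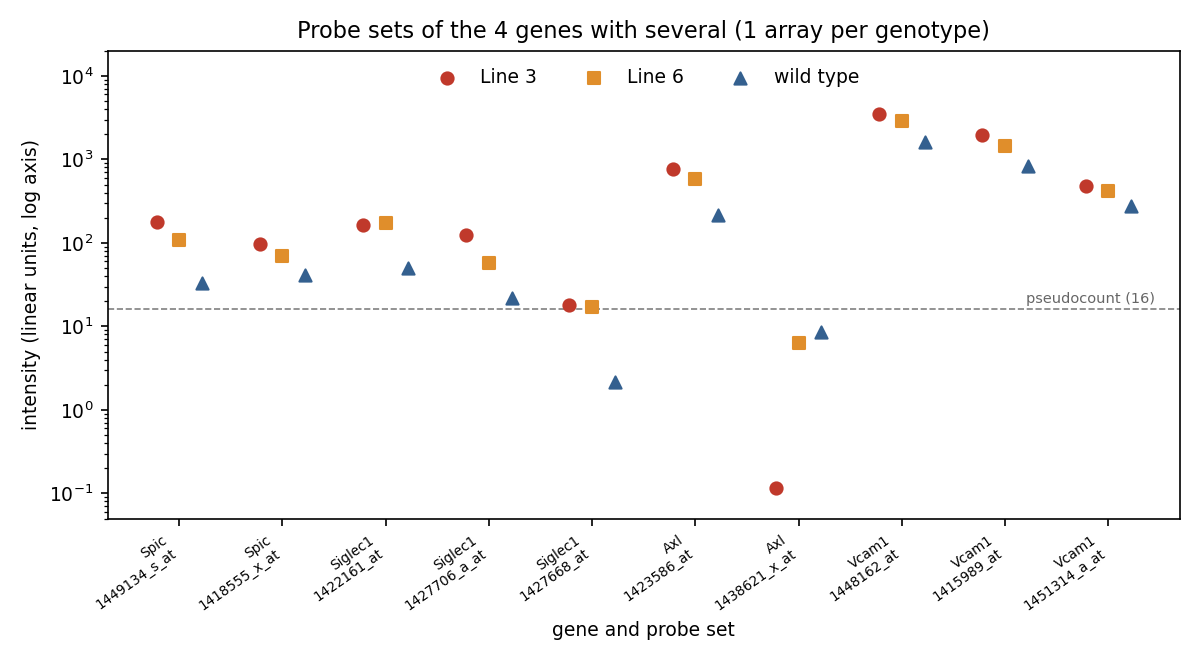
Intensity (log axis) of every probe set of Spic, Siglec1, Axl and Vcam1 on the Line 3, Line 6 and wild type arrays, with the pseudocount of 16 as a dashed line. Wild type is lowest on 9 of the 10 probe sets shown, and the dim Axl probe set, below 16 on all 3 arrays, is the exception.

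**Figure D3:**
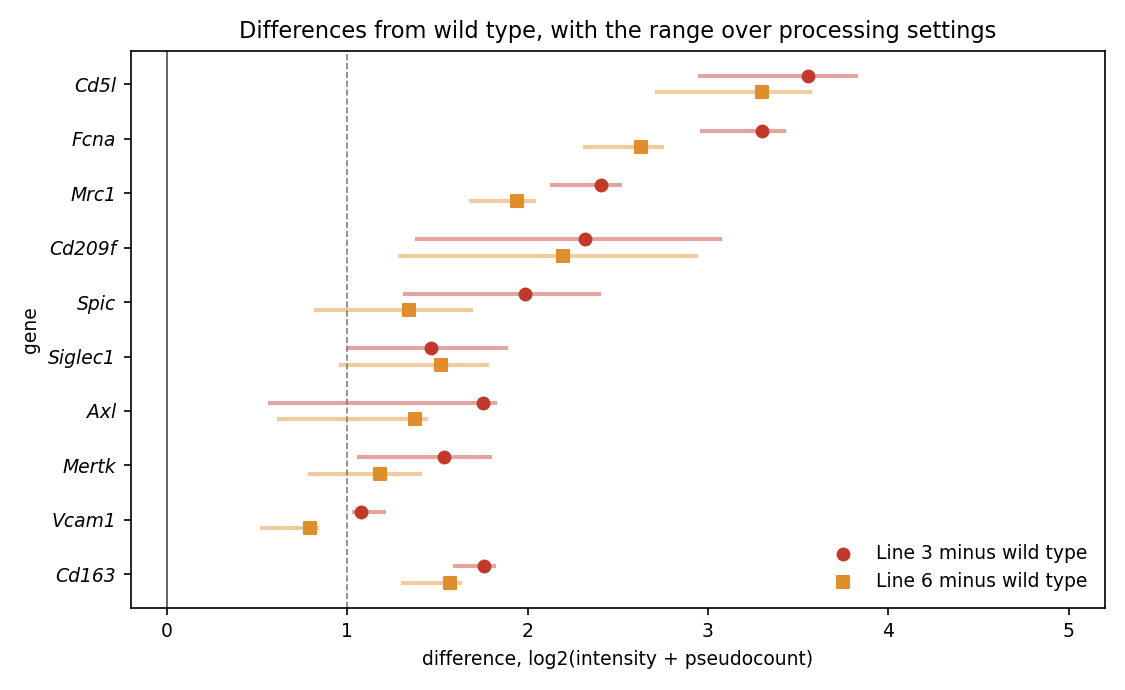
Differences from wild type for the 10 genes in Line 3 (circles) and Line 6 (squares), with lines for the range over the processing settings in which a gene was measured and a dashed line at 2-fold. All ranges lie above 0, those of Spic, Siglec1, Axl and Mertk in Line 6 and of Axl in Line 3 reach below 2-fold, and that of Vcam1 in Line 6 lies wholly below it.

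The comparison of the lines with each other was not used in choosing the genes, although it rests on the same arrays. Of the 10 genes, 9 read higher in Line 3 than in Line 6, and none differed by 2-fold, where 0.709% of all genes were 2-fold higher and 1.58% were 2-fold lower. Over all genes, 56.5% read higher in Line 3. The differences ran from -0.06 for Siglec1 to 0.67 for Fcna, with a median of 0.32 beside 0.05 over all genes. On brightest probe sets, Fcna (1.59-fold) and Spic (1.56-fold, 0.64) stood furthest apart, while Cd209f (0.12) and Cd163 (0.18) were close in both lines. The dimmer Spic probe set gave 0.40, and the second Siglec1 probe set gave 0.92, so this order depends on the probe set read. Spic passed the filter through Line 3 only, which favours a higher value there. The negative value of Siglec1 turned positive under each of the 3 other scalings. Over all genes the Line 3 minus Line 6 differences had an SD of 0.38, and with 1 array for each line none of them was tested.

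The other markers of resident macrophages went in several directions. Of 20 listed genes, 16 passed the filter and 4 were 2-fold higher in both lines: the complement C1q chains C1qa (1.63 in Line 3 and 1.21 in Line 6), C1qb (2.05 and 1.78) and C1qc (2.22 and 1.72), and the membrane protein gene Ms4a7 (1.40 and 1.28). After centring on array medians 3 remained, because C1qa was at 0.96 in Line 6. None of the 16 was 2-fold lower in both. The growth factor receptor gene Csf1r read 6468 in Line 3 and 5825 in Line 6, against 7100 in wild type (-0.13 and -0.28). The lysosomal gene Cd68 read 1534 and 1470, against 1953 (-0.34 and -0.41), and Adgre1, which encodes F4/80, read 448 and 565, against 390 (0.19 and 0.52). Fcgr1, Mpeg1 and Lyz2, which monocytes also express, were below wild type by less than 2-fold in both lines on the deposited scale, and in Line 6 Fcgr1 was past 2-fold after quantile normalization (-1.01) and after centring on array medians (-1.07). The summed intensity of the 20 genes was 42069 in Line 3 and 42482 in Line 6, against 44206 in wild type, a sum in which the brightest probe sets, such as that of Lyz2, weigh most. The 16 genes past the filter had a median of 0.33 in Line 3 and 0.37 in Line 6, and 9 of them lay above wild type in each line.

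**Figure D4:**
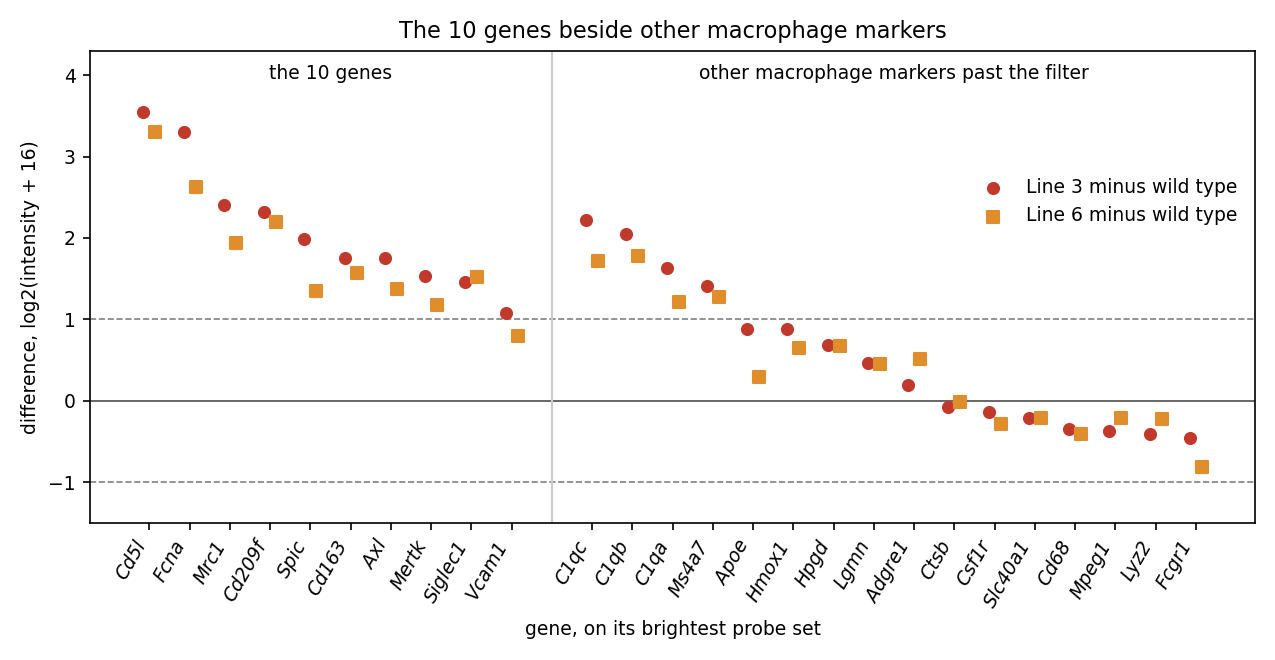
Differences from wild type on the log2(intensity + 16) scale for the 10 genes (left) and for the 16 other macrophage markers past the filter (right), with Line 3 as circles, Line 6 as squares and dashed lines at 2-fold. C1qa, C1qb, C1qc and Ms4a7 lie above the upper line in both lines. On the brightest probe sets, Ctsb, Slc40a1, Csf1r, Cd68, Mpeg1, Lyz2 and Fcgr1 lie below 0 in both.

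Markers of other cells moved on the same arrays. Counts below are over the listed genes past the filter, and sums are over all listed genes that the annotation pairs with a probe set. Neutrophil markers read lower in sum, with 6 of 15 at least 2-fold lower in both lines, none higher, and summed intensities of 116293 in Line 3 and 136264 in Line 6 against 186036 in wild type. Monocyte markers also read lower in sum, with 3 of 12 at least 2-fold lower in both and sums of 35320 and 39823 against 59249. Stem and progenitor markers read higher in sum, with 5 of 14 at least 2-fold higher in both (3 under each other scaling) and sums over 15 genes of 22105 and 18646 against 13843. Markers of sinusoidal endothelium had 3 of 11 higher by 2-fold in both lines (Emcn, Esam and Stab2; 2 after centring and after cyclic loess) and sums over 18 genes of 4661 and 4651 against 3130. On the deposited scale 9 of the 11 lay above wild type in each line, and the median was 0.74 for Line 3 and 0.90 for Line 6. Of 6 marrow stroma markers past the filter, Pdgfrb alone was 2-fold higher in both lines (1.23 in Line 3 and 1.16 in Line 6; inside 2-fold in Line 6 after centring and after cyclic loess), with sums over 16 genes of 2119 and 2210 against 1492. No erythroid marker of 11 and no dendritic cell marker of 11 was past 2-fold in both lines. On the deposited scale, 9 of the 11 dendritic cell markers lay above wild type in each line. Their median was 0.59 for Line 3 and 0.36 for Line 6, and 0.10 for Line 6 after centring. Of 11 B cell markers, 7 passed 2-fold on the higher side in Line 6 (median 1.44) and 1 in Line 3 (median -0.17), and the 1 that passed in both lines, Blnk, did not under the other scalings. Of 8 genes of lineage markers, 1 was lower (Itgam). Xist, the RNA that coats the silenced X chromosome, read higher in both lines (0.91 in Line 3 and 1.17 in Line 6 on its brightest probe set, and between 1.95 and 2.16 in both lines on the other 2), and the Y-linked gene Eif2s3y was lower (-1.16 and -1.24). The part of these differences in the values of the 10 genes was not tested.

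Genes with a pattern most like that of Cd5l were sought by the Euclidean distance from its differences in Line 3 and Line 6. The search used 3 arrays and the genes past the filter, and left out the other genes of the list described here, such as Fcna. The order below therefore holds only for genes outside that list. The 5 nearest were Igf1 (distance 0.95, 2.86 in Line 3 and 2.66 in Line 6), Fgfbp3 (1.28, 2.52 and 2.54), Rpusd3 (1.42, 2.74 and 2.14), C1qc (2.07, 2.22 and 1.72) and Bex1 (2.12, 2.24 and 1.64). Cd5l had the largest positive difference in each line, so all 5 had to have smaller ones. The search also read the same differences by which the list was chosen, and its order is a description only. Igf1, Fgfbp3, Rpusd3 and Bex1 lay below the array median in wild type, where Rpusd3 read 5.91, below the pseudocount.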

How the data were processed

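The authors deposited linear intensities for each probe set on each array. Per the labels' protocols, Trizol RNA was amplified (Ovation Pico WTA), biotinylated and hybridised to Affymetrix GeneChip arrays. How probe sets were summarised, and with which software, is not given in the sources used. All 3 arrays had a mean of 497 once 2% was trimmed at either end, so the deposited values had been scaled. No detection calls were used.

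Intensities were transformed as log2(intensity + 16). The annotation gave 34945 probe sets with 1 symbol, 932 with several and 9160 with none, and 34741 of the first matched the gene table by Entrez identifier. A gene was kept if it reached the median of at least 1 array. Members and gene lists were chosen with earlier results of these data known. Every member and probe set is named. Of other genes, those past 2-fold in both lines in a pathway list (up to 4), relatives and ligands of the members, cell type markers and the 5 genes nearest to Cd5l are named. Cd34, Abca1, Timd4, Spi1, Fcgr1, Mpeg1, Lyz2, S100a8, Slc4a1, Cd79a and Ctsb were named after their values were seen. The steps were run on simulated data with changes seeded only in genes brighter in wild type than most of the members. That run therefore does not cover dim genes. The tools were R 4.3.3, with limma 3.58.1 for scaling only, and Python 3.11.15 with numpy 2.4.6, pandas 2.3.3 and matplotlib 3.10.9.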

Additional observations from a re-analysis of the deposited data

Results flagged for a closer look

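Among the named genes, Gas6 and Cd209c lay on opposite sides of wild type in the lines. Gas6, the bridging ligand of Axl and Mertk, differed from wild type by -0.31 in Line 3 and by 0.06 in Line 6, a difference of -0.37 between Line 3 and Line 6, and it lay below wild type in both lines under each of the 3 other scalings. Cd209c read 3.48 in Line 3 and 34.2 in Line 6, against 22.6 in wild type, with -1.37 between Line 3 and Line 6, at intensities below the array median on all 3 arrays. Neither difference was tested, because each line had 1 array.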

How the results depend on the processing

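All 11 alternatives left every measured member above wild type in both lines. The genes were chosen because many were higher in both lines, and a changed limit or filter leaves a difference as it was. That outcome is thus a description only. The count of members 2-fold higher in both lines was 9, and 4 at a limit of 3-fold and 5 of the 6 members left by a filter at percentile 75. In Line 3 that filter gave 6 of 6. In Line 6 the count was 4 at 3-fold and 5 under that filter. At a limit of 1.5-fold, 2 members (Fcna and Spic) differed between the lines. The share of all genes past that limit between the lines is not given here, so nothing is read from this count. Quantile normalization, centring and cyclic loess each gave 8 members in both lines (Mertk and Vcam1 did not pass), a pseudocount of 64 gave 7, and the median of probe sets gave 6. Plain _at probe sets left 8 members, of which 7 passed. Over all genes, the number higher in both lines was 147 of 10864, against 51 with a pseudocount of 64, 675 at 1.5-fold and 23 at 3-fold. It was 30 of 6868 genes under the filter at percentile 75 and 272 of 18193 without a filter. The median of probe sets gave 103 of 10324 genes, and plain _at probe sets gave 126 of 9470. Scaling checks of the gene lists were added after seeing the data. No paired analysis was possible because each genotype had 1 array.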
